A study of Mus musculus with 6 samples.

Results

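Basophils and mast cells are granulated effector cells of the allergic response. Both arm their surface with IgE through a high-affinity receptor and store histamine and proteases in their granules. Their precursors branch off from myeloid progenitors of the bone marrow, and some of the granule genes are already transcribed in such progenitors. The 10 genes followed here encode granule proteases (Mcpt8, Cpa3, Prss34, Tpsb2 and Cma1), the histamine-forming enzyme Hdc, the IgE receptor chains Ms4a2 and Fcer1a, the granule protein Prg2 and the cytokine Il4. They were given as a list of names, and each was read from every probe set that the platform annotation assigns to this gene alone. This gave 12 of 45037 probe sets, for 9 of the 10 genes. Prss34 had no such probe set and was not analysed here. Each of the 18193 genes with a probe set of its own was read from its brightest one. For a member with more than 1 probe set, the other is given beside it.

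The genes were measured in LSK cells, the lineage-negative fraction of bone marrow with Sca1 and c-Kit on its surface, in which stem cells and multipotent progenitors lie. The IkL/L group held 3 samples from mice homozygous for a hypomorphic allele of Ikzf1, the gene of the transcription factor Ikaros, and the WT group held 3 samples from wild-type mice. All mice were C57BL/6 and 6 to 7 weeks old, and no agent was given. Each IkL/L sample was sorted from the pooled cells of 2 mice and each WT sample from 1 mouse. The allele is carried by every cell of the animal. Per the methods, lineage-positive cells were removed with antibodies to B220, CD11b, Gr1 and Ter119. Whether basophils or mast cells remained among the sorted cells was not tested.

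The arrays had medians between 4.79 and 4.88 on the log2 scale and pairs of arrays correlated at 0.9861 to 0.995. On the leading principal component the IkL/L arrays lay between -27.96 and -19.58 and the WT arrays at 18.62, 52.74 and -3.60, so that WT 2 stood apart and WT 3 was nearest to the IkL/L arrays. Ikzf1, the mutated gene, stood at 10.77, 10.85 and 10.93 in IkL/L cells, against 11.57, 11.59 and 11.44 in WT cells (adjusted p = 0.0307 in limma). This call held in 8 of 14 alternative analyses. The dimmer probe set of Ikzf1 gave a log2 difference of -0.21 (adjusted p = 0.622), with groups that did not overlap. Of the markers of the gate, Kit (log2 difference -0.13) and Cd34 (-0.08) did not differ past the threshold. Flt3, which marks the lymphoid-primed part of the gate, stood at 9.56, 10.05 and 9.80 in IkL/L cells and at 10.97, 10.79 and 10.31 in WT cells (adjusted p = 0.132). Ly6a, which encodes Sca1, was not analysed here. The values are log2 numbers on an arbitrary scale that are compared within a probe set. No call of detection comes with them, and a value under the array medians cannot be told from background. In RNA of a bulk sample, a change in the number of cells that express a gene cannot be told apart from a change in RNA per cell.

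The promoters of the 4 genes whose groups did not overlap and whose values lay above the array medians are shown, since the results turn on these genes. Each runs from 250 bases before to 50 bases after an annotated transcription start (GRCm38.p6), 5′ to 3′ along the transcript. For Hdc and Mcpt8 the whole window lies inside the RefSeq span of the gene. Those spans have their 5′ ends at 126624025 and 56085499, and the sequence before these ends was not searched. Mcpt8 is at chr14:56085148-56085447, Hdc at chr2:126618629-126618928, Cpa3 at chr3:20242132-20242431 and Ms4a2 at chr19:11623670-11623969, all on the minus strand. Capitals mark the core motif of Ikaros named by the study, AGGAA, and the motif of GATA factors, AGATAA, on either strand, so that the reverse complements TTCCT and TTATCT are capitals too.
Mcpt8: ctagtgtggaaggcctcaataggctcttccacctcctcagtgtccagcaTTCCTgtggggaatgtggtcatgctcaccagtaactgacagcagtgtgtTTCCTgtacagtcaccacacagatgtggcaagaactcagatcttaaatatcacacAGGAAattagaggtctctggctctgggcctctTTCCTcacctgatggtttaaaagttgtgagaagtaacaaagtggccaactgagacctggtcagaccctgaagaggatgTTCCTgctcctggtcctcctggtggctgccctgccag
Hdc: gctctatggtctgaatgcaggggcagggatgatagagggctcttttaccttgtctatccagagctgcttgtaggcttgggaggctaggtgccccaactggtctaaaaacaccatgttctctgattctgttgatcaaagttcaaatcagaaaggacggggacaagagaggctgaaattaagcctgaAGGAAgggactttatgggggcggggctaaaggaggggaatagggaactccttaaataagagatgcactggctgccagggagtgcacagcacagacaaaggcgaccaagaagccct
Cpa3: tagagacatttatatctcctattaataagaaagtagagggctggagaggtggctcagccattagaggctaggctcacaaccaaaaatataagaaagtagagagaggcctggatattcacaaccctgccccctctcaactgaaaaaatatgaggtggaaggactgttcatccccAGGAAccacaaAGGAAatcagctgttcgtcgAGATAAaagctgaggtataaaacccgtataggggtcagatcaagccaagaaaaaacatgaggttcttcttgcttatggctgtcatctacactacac
Ms4a2: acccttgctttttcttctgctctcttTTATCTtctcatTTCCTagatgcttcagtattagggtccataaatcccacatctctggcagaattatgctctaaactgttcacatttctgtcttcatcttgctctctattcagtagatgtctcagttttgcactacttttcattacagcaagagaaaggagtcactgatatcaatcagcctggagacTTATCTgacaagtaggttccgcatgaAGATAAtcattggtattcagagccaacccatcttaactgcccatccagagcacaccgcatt

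The Mcpt8 promoter held 5 matches to AGGAA, at -201, -152, -97, -65 and 14 from the start, and none to AGATAA. At least 5 such matches occur in 1.37% of 32851 promoters of this length, and at least 1 in 66.7%. Hdc and Ms4a2 had 1 match to AGGAA each and Cpa3 had 2. Ms4a2 held 3 matches to AGATAA, at -224, -37 and -11, a number reached by 0.107% of promoters, and Cpa3 held 1, at -46. At least 1 match to AGATAA occurs in 11.2% of promoters. The E-box, CANNTG, which reads the same on both strands, occurs in 72.3% of promoters and was found 3 times in Mcpt8, 2 times in Cpa3, 1 time in Hdc and not in Ms4a2. The cutoffs of 5 for AGGAA and 3 for AGATAA equal the highest counts found among the members, so their shares are a description. The match in Mcpt8 at 14 lies after the transcription start. Matches to different motifs may share bases, and a match describes the letters alone. Among the other members with an entry, the promoter of Cma1 held 2 matches to AGGAA and none to AGATAA, that of Prss34 held 1 and 1, and that of Fcer1a held 2 and 1. The 2 promoters of Il4 held 1 and 2 matches to AGGAA and none to AGATAA. Tpsb2 and Prg2 had no entry.

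Of the 9 measured genes 1 rose in IkL/L LSK cells and none fell, with the adjusted p-value of limma at a threshold of 0.05. Over all genes 0.748% rose and 0.242% fell. In 5 of the 9 genes (Mcpt8, Cpa3, Hdc, Ms4a2 and Fcer1a) all 3 IkL/L arrays lay above all WT arrays, against 7.62% of all genes, and in 1 gene (Il4) they lay below them, against 9.59%. The same 6 genes had an unadjusted p under 0.05, 5 on the higher side and 1 on the lower, where all genes gave 5.83% and 5.35%. Of these 6 genes, Fcer1a and Il4 lay near or under the array medians. The median log2 difference of the 9 genes was 0.67, beside -0.02 over all genes. It was 1.31 over the 5 genes at or above the median level and 0.42 when the probe sets of a gene were averaged. This describes a list that was chosen with results of these data known, and the genes are not independent of one another.

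**Figure D1:**
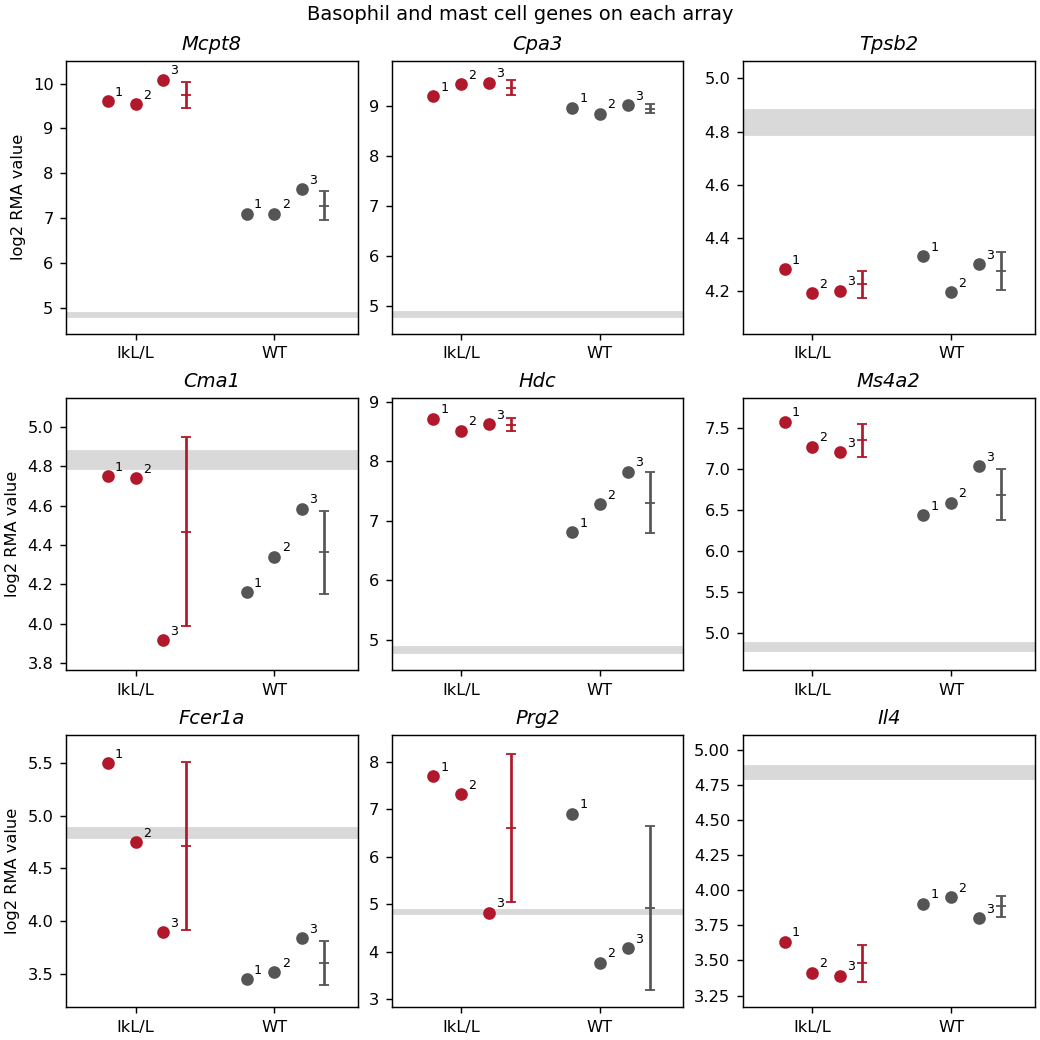
Log2 RMA value (vertical axis, scaled to each gene, so that it begins above 0) of each measured gene on the 3 IkL/L arrays (red) and the 3 WT arrays (grey), numbered by replicate, with the mean and SD of a group as a bar and the range of the array medians as a grey band. Mcpt8 shows the widest gap between the groups, 1.90, while Tpsb2, Cma1 and Il4 lie under the band on every array.

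Mcpt8, a protease of basophil granules that serves as a marker of these cells in the mouse, was the gene that rose. It stood at 9.61, 9.54 and 10.09 in IkL/L cells on arrays 1, 2 and 3, and at 7.10, 7.10 and 7.64 in WT cells. Every IkL/L value exceeded every WT value, and the lowest IkL/L array lay 1.90 above the highest WT array on the log2 scale. The means were 9.75 ± 0.30 in IkL/L cells and 7.28 ± 0.31 in WT cells (SD, n = 3 each), a log2 difference of 2.47 (SE 0.20, 95% interval 2.01 to 2.92) and a 5.53-fold change with an interval from 4.04 to 7.59. The adjusted p was 0.00306 in limma, and Mcpt8 passed in each of the 14 alternative analyses, with adjusted p from 0.000675 to 0.0296. Without each array in turn the difference ran from 2.30 (without IkL/L 3) to 2.65 (without WT 3). WT 1 and WT 2 gave the same value for Mcpt8 to every decimal, as these arrays did for 101 of the 45037 probe sets, while WT 3 shared 128 values with WT 1 and 123 with WT 2.

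The other proteases differed less or lay near background. Cpa3, the carboxypeptidase of mast cell granules that is also transcribed in early progenitors, stood at 9.19, 9.44 and 9.46 in IkL/L cells, against 8.97, 8.84 and 9.02 in WT cells. The groups did not overlap, with a gap of 0.17, and the log2 difference was 0.42 (SE 0.11, 95% interval 0.16 to 0.68, 1.34-fold), which did not pass (adjusted p = 0.244). Tpsb2, a tryptase of mast cells, stood at 4.28, 4.19 and 4.20 in IkL/L cells and at 4.33, 4.20 and 4.30 in WT cells, with a log2 difference of -0.05 (95% interval -0.26 to 0.16). Its other probe set gave -0.10 (95% interval -0.38 to 0.17). Cma1, the connective tissue mast cell chymase, stood at 4.75, 4.74 and 3.92 in IkL/L cells and at 4.16, 4.34 and 4.58 in WT cells, with a log2 difference of 0.11 (95% interval -0.43 to 0.64). Both genes lay under the array median on all 6 arrays and their groups overlapped.

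Hdc makes histamine from histidine and showed the next clearest separation. It stood at 8.71, 8.51 and 8.62 in IkL/L cells, against 6.80, 7.28 and 7.83 in WT cells. The IkL/L arrays lay close together and all above WT 3, the highest WT array, by at least 0.68. The means were 8.61 ± 0.10 in IkL/L cells and 7.30 ± 0.51 in WT cells (SD, n = 3 each), a log2 difference of 1.31 (SE 0.23, 95% interval 0.78 to 1.84, 2.48-fold). It did not pass in limma (adjusted p = 0.0650). It passed without WT 3 (1.57, adjusted p = 0.0132), with array weights (0.0354) and with an intensity trend (0.0380), and not in the other 11 alternative analyses. The dimmer probe set of Hdc stood at 6.25, 6.14 and 5.76 in IkL/L cells and at 5.25, 5.17 and 5.87 in WT cells. There WT 3 lay above IkL/L 3, and the log2 difference was 0.62 (adjusted p = 0.405). Both probe sets carry the suffix by which the manufacturer marks probes that match more than 1 transcript.

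The IgE receptor is built from a chain that binds IgE (Fcer1a), a chain that amplifies the signal (Ms4a2) and a signalling chain shared with other Fc receptors (Fcer1g). Ms4a2 stood at 7.58, 7.27 and 7.21 in IkL/L cells, against 6.44, 6.59 and 7.03 in WT cells. The groups did not overlap, with a gap of 0.17, and the log2 difference was 0.67 (SE 0.17, 95% interval 0.27 to 1.07, 1.59-fold, adjusted p = 0.234). Its other probe set lay under the array median on all 6 arrays and gave 0.11 (adjusted p = 0.870). Fcer1a stood at 5.49, 4.75 and 3.90 in IkL/L cells and at 3.45, 3.52 and 3.84 in WT cells. The IkL/L arrays spread widely, IkL/L 1 alone lay above the array medians, and IkL/L 3 exceeded the highest WT array by 0.06. The log2 difference of Fcer1a was 1.11 (SE 0.35, 95% interval 0.31 to 1.92, adjusted p = 0.356), with 0.72 without IkL/L 1 and 1.52 without IkL/L 3. No fold is given for it, since its WT level cannot be told from background. Fcer1g, which is not specific to mast cells or basophils, stood at 7.39, 7.77 and 7.88 in IkL/L cells, against 7.15, 7.05 and 6.99 in WT cells, a log2 difference of 0.62 (adjusted p = 0.156). None of the 3 chains passed. In the probe set each chain was read from, the IkL/L arrays lay above all WT arrays, as in 7.62% of all genes. For Fcer1a the margin lay within the range of background. In the other probe set of Ms4a2 the groups overlapped.

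**Figure D2:**
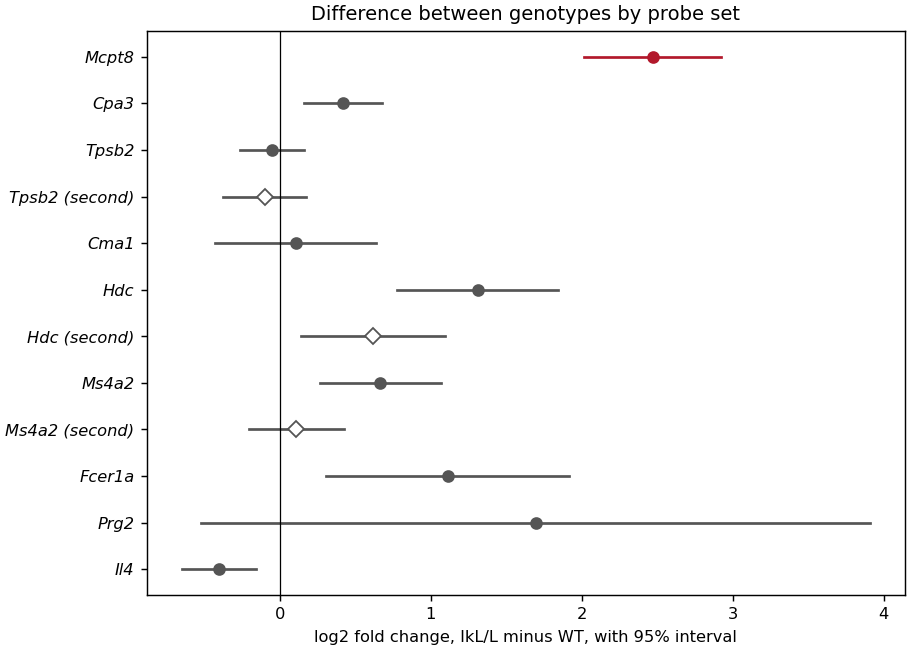
Horizontal axis: IkL/L minus WT difference on the log2 scale for each probe set of the measured genes, with its 95% interval from limma as a line. Circles are the probe sets a gene was read from and open diamonds the others; Mcpt8 (red) passed the adjusted threshold at 2.47, and the interval of Prg2 runs from -0.52 to 3.91.

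Prg2, the major basic protein of eosinophil granules that basophils and mast cells also make, varied most between arrays of the same genotype. It stood at 7.70, 7.31 and 4.82 in IkL/L cells and at 6.91, 3.77 and 4.08 in WT cells. IkL/L 1, IkL/L 2 and WT 1 were high, the other arrays lay close to or under the array medians, and the genotypes overlapped. The log2 difference was 1.69 with a 95% interval from -0.52 to 3.91 (adjusted p = 0.682), and it ran from 1.12 without WT 2 to 2.69 without WT 1. Epx, the peroxidase of eosinophils, stood at 5.16, 4.39 and 3.66 in IkL/L cells and at 4.88, 3.40 and 3.75 in WT cells, with IkL/L 1 and WT 1 as its highest arrays. S100a8, a protein of mature neutrophils, stood at 8.35, 7.93 and 6.01 in IkL/L cells and at 6.93, 4.85 and 5.95 in WT cells, and its 3 highest arrays were those of Prg2. The summed linear level of 5 markers of mature neutrophils ranged from 153 to 473 in IkL/L cells and from 125 to 246 in WT cells, and 2 of these 5 lay under the median level. S100a8 is 1 of the 5 and had the highest mean, so the sum is not independent of its values. None of the 5 passed. The part of such cells in the values of Prg2 was not tested.

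Il4, the cytokine that basophils and mast cells release and that drives type 2 immunity, lay under the array median on all 6 arrays. It stood at 3.63, 3.41 and 3.39 in IkL/L cells, against 3.90, 3.95 and 3.80 in WT cells. The groups did not overlap, with a gap of 0.17, and the log2 difference was -0.41 (SE 0.11, 95% interval -0.65 to -0.16, adjusted p = 0.237). At such values a difference cannot be told from one in background signal. Of 10 other cytokine and chemokine genes that these cells can make, 6 lay under the median level. Of the 10, 0 passed in limma, where 0.748% of all genes rose and 0.242% fell. An unadjusted p under 0.05 was reached by 0, against 5.83% of all genes on the higher side and 5.35% on the lower. In 0 the groups did not overlap, against 7.62% of all genes with IkL/L above WT and 9.59% below. With 10 genes, such counts cannot be told from these shares. The log2 differences nearest to the threshold were those of Il3 (-0.17), Il13 (-0.11) and Il5 (0.10), with adjusted p of 0.737 or above.

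The members also differed in which array of a genotype was highest. In IkL/L cells the highest array was IkL/L 1 for 7 of the 9 genes and IkL/L 3 for the other 2, Mcpt8 and Cpa3. In WT cells it was WT 3 for 6 of the 9. The myeloid progenitor genes Ms4a3 and Elane had IkL/L 3 and WT 3 as the highest array of each genotype, as Mcpt8 and Cpa3 did. IkL/L 3 was the lowest mutant array for Ms4a2, Fcer1a, Prg2, Cma1 and Il4, as it was for Epx and S100a8.

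**Figure D3:**
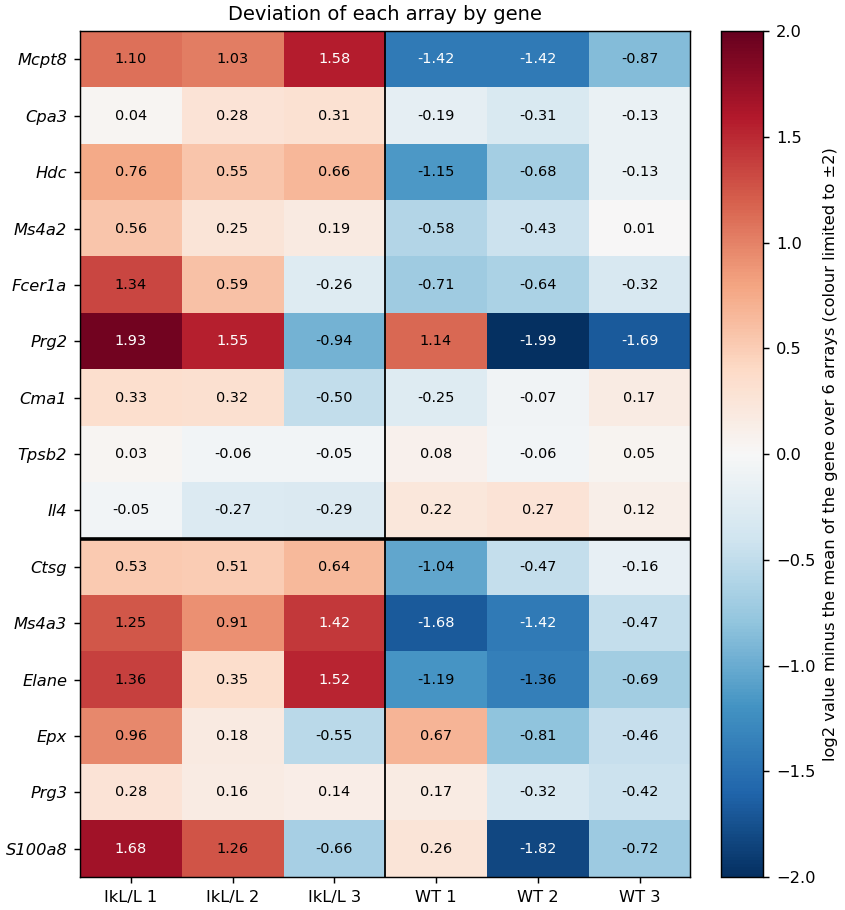
Deviation of each array from the mean of a gene over all 6 arrays, in log2 units, for the 9 measured genes (above the thick line) and for 6 genes of other granulocytes (below it), with IkL/L arrays left of WT arrays. Mcpt8 is above its mean on all IkL/L arrays, by 1.03 to 1.58, whereas Prg2 is above it on IkL/L 1, IkL/L 2 and WT 1.

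Mcpt8 lies on chromosome 14 in the chymase locus, a cluster of serine proteases of mast cells, neutrophils and cytotoxic lymphocytes. In the order of RefSeq genes its neighbours are Mcpt4 on one side and Ctsg, cathepsin G of neutrophil granules, on the other. Ctsg stood at 13.31, 13.30 and 13.43 in IkL/L cells, against 11.74, 12.31 and 12.62 in WT cells. Its groups did not overlap, and the log2 difference was 1.12 (adjusted p = 0.0748). Ctsg passed without WT 3, with array weights and when the probe sets of a gene were averaged. Under that averaging its difference stayed at 1.12, and p-values were adjusted over 18193 genes in place of 45037 probe sets. Of the 11 genes of the locus measured beside Cma1 and Mcpt8, 10 lay under the median level, all but Ctsg, and these 10 had log2 differences between -0.20 for Gzmc and 0.05 for Gzmb. In Gzmc, Gzme (-0.18) and Gzmf, 27.3% of the 11, the IkL/L arrays lay below all WT arrays, against 9.59% of all genes. At the level of these genes a difference cannot be told from one in background signal. Of the chymases, Mcpt4 gave -0.03, Mcpt1 -0.06 and Mcpt2 -0.10. The difference at Mcpt8 and that at Ctsg stood in a cluster whose other measured genes lay under the median level. Whether those genes were expressed cannot be told from these values. Of 6 genes listed for the tryptase locus, 0 passed and 5 lay under the median level, with log2 differences from -0.20 for Tpsab1 to 0.05 for Prss32. Prss30 and Prss32 start at 23972126 and 23853772 of chromosome 17, away from the others, which start between 25308646 and 25369195. Tpsab1 is a close relative of Tpsb2, and probes may not separate them. Prss29 gave -0.15 and Prss30 -0.13.

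Genes that act around the members were taken as 8 lists with 97 genes, of which 85 were measured. None of the 85 passed in limma, where 0.748% of all genes rose and 0.242% fell. An unadjusted p under 0.05 was reached by 13 (15.3%) on the higher side and 0 on the lower, against 5.83% and 5.35% of all genes. In 18 of the 85 (21.2%) the IkL/L arrays lay above all WT arrays and in 5 (5.88%) below them, against 7.62% and 9.59% of all genes. The median log2 difference was 0.05, beside -0.02 over all genes. Without WT 3 Ctsg passed, the 1 gene of the 85 that did so when an array was left out.

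Of 14 transcription factors that direct basophil and mast cell fate, 11 had a log2 difference above 0, as did 8087 of all 18193 genes. In 6 of the 14 (42.9%) the IkL/L arrays lay above all WT arrays, against 7.62% of all genes, and in 0 below them, against 9.59%. None of the 14 passed. Their median was 0.29. Irf8, which acts in basophil and monocyte progenitors, stood at 10.88, 10.60 and 11.21 in IkL/L cells, against 10.09, 10.14 and 10.15 in WT cells, a log2 difference of 0.77 (adjusted p = 0.10). It passed when the probe sets of a gene were averaged (adjusted p = 0.0266). Gata1 gave 0.61 (adjusted p = 0.398) and Cebpb 0.49 (0.353), which was 0.27 (0.410) with its probe sets averaged. Gata2, which mast cells and basophils both require, stood at 9.94, 10.44 and 9.98 in IkL/L cells and at 9.75, 9.79 and 9.93 in WT cells. Its groups were apart by a narrow margin, and its log2 difference was 0.30 (adjusted p = 0.631). Cebpa, which favours the basophil over the mast cell fate, gave 0.61 (adjusted p = 0.566) with groups that overlapped, and Mitf, a factor of mast cells, gave 0.21 (0.658). The last 3 were named after their values were seen.

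Among 14 receptors for growth factors and other ligands, Csf2rb, the chain shared by the receptors for IL-3, IL-5 and GM-CSF, stood at 10.39, 10.05 and 10.20 in IkL/L cells, against 9.22, 9.55 and 9.85 in WT cells. Its log2 difference was 0.67 (adjusted p = 0.220). Csf2ra gave 0.56 (0.396) and Csf2rb2 0.63 (0.593), and the list had a median of 0.04. With the probe sets of a gene averaged, Csf2ra gave 0.25 (0.504). In 3 of the 14 (21.4%) the IkL/L arrays lay above all WT arrays, against 7.62% of all genes. In 1 (7.14%) they lay below them, against 9.59%, and none of the 14 passed. Il3ra, among those on the higher side, gave 0.12 (adjusted p = 0.778). Of the surface proteins of mature basophils and mast cells in this list, Cd200r3, Enpp3 and Ptgdr2 were picked with their values known. They gave -0.06, -0.18 and 0.07 and stood under the array medians on every array. In the signalling of the IgE receptor, the adaptor Gab2 averaged 9.98 ± 0.034 in IkL/L cells and 9.66 ± 0.033 in WT cells (SD, n = 3 each), a log2 difference of 0.31 (adjusted p = 0.276). When the probe sets of a gene were averaged, Gab2 gave 0.18 (adjusted p = 0.528). Lat2 gave -0.45 (0.639) at a low level, and the median of the 13 genes was 0.11.

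Of 12 genes that make mediators or store them in granules, 11 had a log2 difference above 0. In 5 of the 12 (41.7%) the IkL/L arrays lay above all WT arrays, against 7.62% of all genes, and none passed. The 3 with the smallest p were Vamp8, a protein of granule fusion, at 0.32 (adjusted p = 0.509), Hexa, a subunit of the granule enzyme hexosaminidase, at 0.27 (0.510) and Srgn, the proteoglycan core that holds granule contents, at 0.21 (0.591). The median was 0.20. Of the 5 eosinophil genes measured, Siglecf gave 0.43 (0.317), Prg3 0.39 (0.536) and Ccr3 -0.25 (0.676), and 4 of the 5 lay under the median level.

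**Figure D4:**
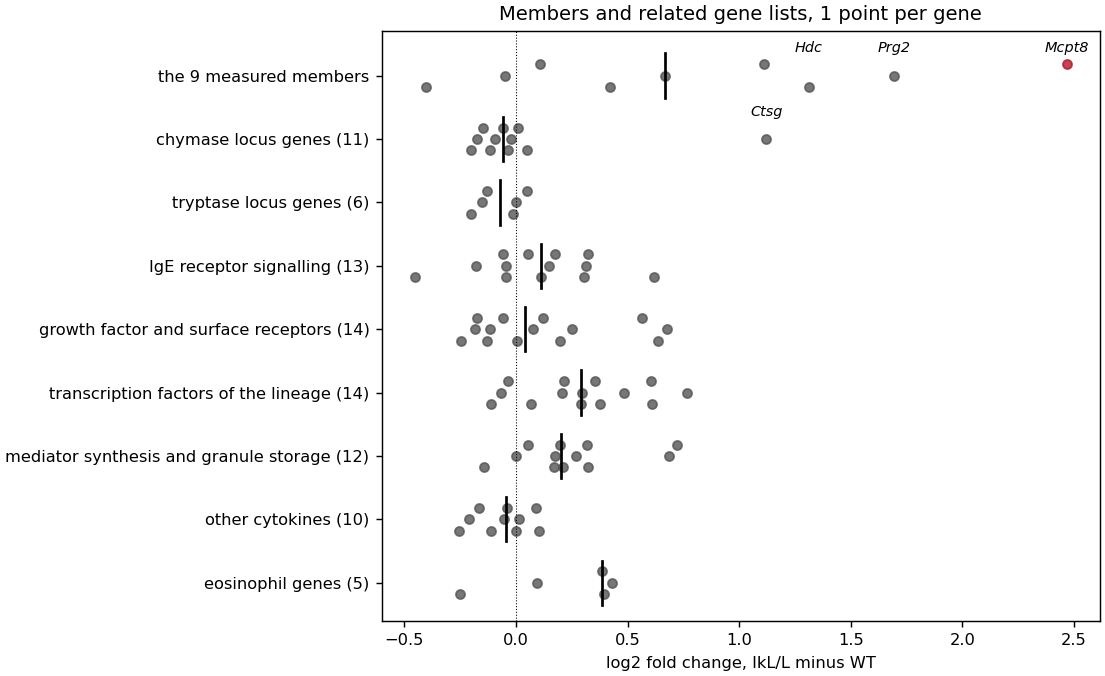
Horizontal axis: IkL/L minus WT difference on the log2 scale for the 9 measured members and each related list, with the number of measured genes in brackets, 1 point per gene and a black line at the median. Mcpt8 (red) is the 1 gene shown that passed the adjusted threshold, and Ctsg at 1.12 is the related gene with the highest value.

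Markers of other cell types were read beside the members. Of 5 markers of neutrophil and monocyte progenitors, 2 rose, Ms4a3 (log2 difference 2.38, adjusted p = 0.0175) and Elane (2.16, 0.0312), and in 4 the IkL/L arrays lay above all WT arrays, as in 7.62% of all genes. Csf3r gave 0.00. Their summed linear level ranged from 26786 to 31975 in IkL/L cells and from 17745 to 22366 in WT cells, and none of the 5 lay under the median level. The brightest probe sets of this sum are those of Mpo (log2 difference 0.35, adjusted p = 0.335) and Prtn3 (0.69, 0.115), which did not pass. In 3 of the 4 erythroid markers measured, Car1, Klf1 and Epor, the IkL/L arrays lay above all WT arrays, against 7.62% of all genes. The summed level of the 4 ranged from 1162 to 2213 in IkL/L cells and from 553 to 756 in WT cells. Car1 was its brightest probe set. None of the 4 passed, with adjusted p of 0.0507 for Car1, 0.143 for Klf1 and 0.553 for Epor. Hba-a1 lay under the median level. Of the 5 megakaryocyte markers none passed. In 1 (Itga2b, 0.86, adjusted p = 0.118) the IkL/L arrays lay above all WT arrays, against 7.62% of all genes. Among 4 B cell markers Ms4a1 passed (adjusted p = 0.0165), with 5.65, 6.49 and 5.18 in IkL/L cells and 3.34, 3.32 and 3.54 in WT cells, where its level lies under the array medians and cannot be told from background. Of the other B cell markers, Ebf1 and Cd79a lay under the median level, so that a difference could not be read from them, and Pax5 gave -0.22. Among 5 macrophage markers none passed. Cd68 gave 1.17 with groups that did not overlap, Adgre1 gave 0.11, and C1qa (-0.87), Vcam1 (-1.11) and C1qb (-0.21) were on the lower side, for a median of -0.21. Among 4 T cell markers none passed, and in 1 (Cd4, 0.25) the IkL/L arrays lay above all WT arrays, against 7.62% of all genes. A count of 1 among so few markers cannot be told from that share. The part of these cells in the values of Mcpt8 and Hdc was not tested.

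The genes whose values followed those of Mcpt8 most closely over the 6 arrays, among 9231 other genes with a mean of at least 6, were Khk (Pearson r = 0.9978), Dram1 (0.9969), Fkbp11 (0.9941), Pon3 (0.9935) and Gab2 (0.9932). These values share the split into genotypes and are a description. Khk, which encodes ketohexokinase, stood at 10.11, 10.22 and 10.43 in IkL/L cells, against 8.83, 8.82 and 9.08 in WT cells, with a log2 difference of 1.35 (adjusted p = 0.00582). Dram1 (1.48, adjusted p = 0.0122) and Fkbp11 (1.72, 0.00739) rose as well, while Pon3 (0.55, 0.0875) did not pass.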

How the data were processed

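RNA of sorted LSK cells had been amplified, labelled and hybridised to Affymetrix mouse arrays. The deposited values are log2 numbers that the authors computed by RMA (R 2.8 per the labels): background is corrected, all arrays receive the same distribution and probes are summarised per probe set; per the methods, these arrays were normalized together with thymocyte arrays. The common distribution takes out a change in total RNA. The platform annotation gave the gene of a probe set, with symbols updated through Entrez numbers (34741 of 34945 probe sets with 1 gene; 932 have several and 9160 are not listed). IkL/L was set against WT with limma 3.58.1 in R 4.3.3 (lmFit, eBayes, genotype as the only term, testing both directions), with Benjamini-Hochberg adjustment over 45037 probe sets and a threshold of 0.05. The fit was tested on simulated data. Values are mean ± SD, and 95% intervals are those of limma. The number of arrays limits the precision. The p-values rest on 1 spread per probe set, taken within both groups together and moderated over all probe sets. An IkL/L sample pools 2 mice and a WT sample is 1 mouse, so the SDs of the groups are not like quantities. The members and lists were chosen with earlier results of these data known. The text names all members, for each related list the genes that passed and the 3 others with the smallest p, the 5 genes most like Mcpt8 (mean of at least 6) and Ikzf1; others are marked, and markers of other cell types were fixed as lists. Alternatives were a second quantile normalization, median centring, 2 filters on low values, array weights, a variance trend over intensity (robust), the replicate number as a block, each array left out, and averaging of the probe sets of a gene. Same-numbered samples deviated together at r = 0.0084, -0.1121 and 0.0789, and the main fit did not pair them. With 3 arrays per group, these values cannot decide whether same-numbered samples were prepared together.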

Additional observations from a re-analysis of the deposited data

How the results depend on the processing

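Over the 9 measured members, 1 gene passed in all alternatives except 3, in which 2 passed, Mcpt8 and Hdc: the robust intensity trend, array weights and the analysis without WT 3. With 1 array left out this count ran from 1 to 2. Without an array the count of changed probe sets, 251 with all arrays, ran from 57 (without WT 1) to 287 (without WT 3), with 67 without IkL/L 1, 142 without IkL/L 2 and 143 without WT 2; fewer samples enter these fits. With the replicate block it was 143, and the block changed no call among the members. Of the 85 related genes, 0 passed with all arrays, 1 with array weights (Ctsg), 2 when the probe sets of a gene were averaged (Ctsg and Irf8), where p-values were adjusted over 18193 genes, and 0 to 1 with an array left out. The median log2 difference of the members, 0.67, was 1.31 over the 5 at or above the median level, 0.99 over the 4 with a mean of at least 6, and 0.42 when the probe sets of a gene were averaged. Cma1 changed sign without IkL/L 1 (-0.0350) and without IkL/L 2 (-0.0297) and was 0.38 without IkL/L 3, at a level under the array medians. Every other member kept its direction in each alternative that measured it. Background signal limits what can be said of Tpsb2, Cma1, Fcer1a and Il4.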
